A study of Sus scrofa with 102 samples.

Results

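The liver of 12-day-old sucklings was compared between 2 crossbred pig types, LWDL and LWDM, on 11 of the 102 arrays of a study of fat, liver and muscle. The arrays were those whose labels give liver and an age of 12 days, 5 of LWDL and 6 of LWDM. The dams of both types were LWD females, a cross of Landrace, Large White and Duroc. LWDL sucklings had a Landrace boar as sire and LWDM sucklings had a Meishan boar, the Meishan being a Chinese breed known for its fatness and prolificacy. All sucklings were female, and all were sampled in the same hour of the morning. The methods give 2 LWD females and 1 boar of each breed, so that the breed of the sire and the single boar cannot be told apart and animals of one type share their sire. Which sucklings were litter mates is not given in the sources used here, so that breed type and litter cannot be told apart either. On each array the liver RNA of 1 suckling (Cy3) was hybridized together with a control RNA (Cy5) that was pooled from the liver of 2 female LWD pigs and was the same on all arrays. Dyes were not exchanged. Values are the log2 ratio of the suckling to the control liver, and differences are LWDM minus LWDL on that scale, so that 1 stands for a 2-fold higher level in LWDM. Liver of 12 fetuses (85-day-old, 6 of each type) and of 15 fattening pigs (5-month-old, 8 LWDL and 7 LWDM) was used for the comparison across ages.

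A suckling lives on milk, which is rich in fat and holds cholesterol but little carbohydrate. Its liver burns fatty acids, turns part of them into ketone bodies for other tissues and makes glucose from amino acids and glycerol. The liver can also make cholesterol from acetyl-CoA through the mevalonate pathway, whose genes are switched on together by the transcription factor SREBF2 when sterols in the cell membrane are low and switched off when sterols arrive from the diet. At this age the liver still gives up its fetal program, in which it is a site of blood formation, and is being settled by lymphocytes and macrophages.

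In the Cy3 channel of the suckling liver, 68.3% to 74.6% of the 43221 probes of an array gave a signal well above background, and the median spot was 3.0 to 4.04 times its local background. No Cy3 spot was saturated. The mean correlation of an array across probes was 0.904 to 0.940 with the arrays of its own type and 0.859 to 0.904 with those of the other type. Over 83 probes with the same breed difference in fetuses and fattening pigs, the mean signed log2 ratio was -0.29 to -0.008 in the LWDL sucklings and 1.31 to 1.43 in the LWDM sucklings, so that all 11 arrays lay on the side of their label. The arrays came from 3 slides, and 1 of these held 4 LWDM arrays, 1 held 3 LWDL arrays and 1 held LWDL replicates 1 and 2 with LWDM replicates 5 and 6. Breed type and slide can thus be separated only on the slide that held both. Among the fetal arrays used for the comparison across ages, LWDL replicate 2 stood apart. The SD of its log2 ratios was 0.486, against 1.17 to 1.27 on the other 11 fetal arrays. Across probes it correlated at 0.146 to 0.205 with these, which correlated at 0.924 to 0.971 with each other, and at 0.0052 to 0.108 with the arrays of fattening pigs. Results on fetuses are therefore given with and without this array.

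Of 29342 tested probes, 500 (1.7%) differed by over 2-fold with an adjusted p under 0.05 in limma, and these are referred to as called. LWDM livers were higher for 229 probes (0.78%) and lower for 271 (0.924%). Among the called probes, 339 had no overlap between the 5 LWDL and the 6 LWDM values, where 6.69% of all tested probes had none (3.13% with LWDM above and 3.55% with LWDM below). At any fold, 2573 probes (8.77%) had an adjusted p under 0.05. A difference of over 4-fold was found for 48 probes that were higher and 54 that were lower in LWDM. The median difference over all tested probes was 0.013, with an interquartile range of -0.13 to 0.15. With the slide as a block, the difference rested on the 2 LWDL and 2 LWDM arrays of the shared slide, and 92 probes were called (54 higher, 38 lower). On that slide all 500 called probes had the same sign as over all arrays, and 437 had no overlap between the 2 and 2 arrays. These 4 arrays also took part in choosing the 500, so their sign is not independent of the call.

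Genes could be named for 347 of the called probes, which stood for 264 genes. The names come from the supplementary tables of the study, which hold only genes that differed in one of its own comparisons. They covered 4.65% of the probes on the array, so that the absence of a gene from the lists below says nothing about its level. Of 1037 named genes tested with 1 probe each, 114 were called higher and 136 were called lower in LWDM, and the gene lists below are read against these numbers as well as against those of all probes. For the comparison at hand the study itself had listed 282 of all the genes it names, tested here or not, so their direction is not independent evidence. Of the 1037 tested genes, 797 lay outside that list, and 26 of these (3.26%) were called in either direction. The counts of 114 and 136 thus come mostly from the list of the study.

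**Figure D1:**
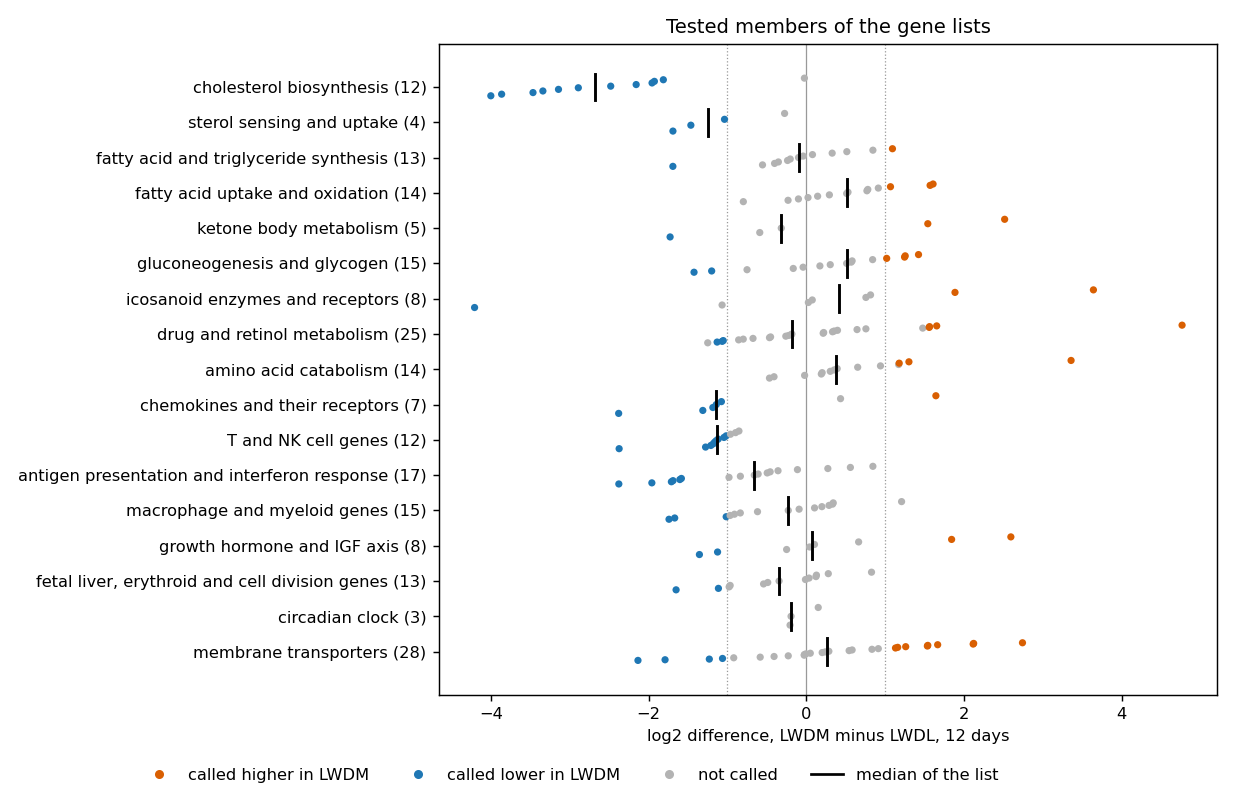
Difference LWDM minus LWDL (x axis, log2) of each tested member of 17 gene lists in the liver of 12-day-old sucklings, with 1 probe per gene and the number of tested members in brackets. Coloured points passed the test and 2-fold (dotted lines), grey points did not, and black bars are medians. The median bar of cholesterol synthesis lies at -2.69, and all 12 T and NK cell genes lie below 0.

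Of the 17 gene lists, cholesterol synthesis had the largest median difference. The list holds 21 genes, of which 12 had a name and could be tested. Of these, 11 were lower in LWDM, none was higher, and the median difference was -2.69, against 0.013 over all probes. The study itself had listed 11 of the 12 for this comparison, so that the count is largely set by the naming and is a description. The lower genes lie along the pathway from acetyl-CoA to sterols and include ACAT2, HMGCS1, MVD, IDI1, FDPS, FDFT1, SQLE, CYP51A1, MSMO1 and EBP. The member that was not called, LBR, a sterol reductase of the nuclear envelope that also anchors chromatin, had a difference of -0.02 (standard error 0.15). None of the 11 had any overlap between the types, where 3.55% of all tested probes had every LWDM array below every LWDL array. Of 26 tested probes for the 12 genes, 23 were called lower and 1 was called higher, a second probe of IDI1.

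IDI1, which isomerizes the C5 units of the pathway, had the largest difference on its brightest probe, while its second probe went the other way as given above. Its log2 ratios in LWDL replicates 1 to 5 were -1.66, -4.43, -2.35, -1.21 and -1.17, and those in LWDM replicates 1 to 6 were -6.11, -6.16, -6.06, -6.23, -6.28 and -6.16. The 6 LWDM sucklings were nearly level with each other, whereas the 5 LWDL sucklings were spread over more than 3 units with replicate 2 at the bottom. The difference was -4.00 (standard error 0.48, limma adjusted p = 0.000501). Even LWDL replicate 2 was above every LWDM suckling.

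HMGCS1, which condenses acetoacetyl-CoA with acetyl-CoA early in the pathway, was at -0.38, -2.61, -0.59, 0.72 and 0.43 in LWDL and between -4.16 and -3.85 in LWDM, a difference of -3.47 (limma adjusted p = 0.00114). CYP51A1, the demethylase of lanosterol, had a median of -0.23 in LWDL (lowest -2.69, highest -0.09) and -4.72 in LWDM (lowest -5.14, highest -3.97). The CYP51A1 difference was -3.86 (limma adjusted p = 0.000267). SQLE, the squalene epoxidase that opens the sterol branch, ranged from -2.44 to 0.48 in LWDL and from -4.04 to -3.51 in LWDM, with a difference of -3.14. MSMO1, the next oxidase after CYP51A1, differed by -3.34. FDPS (-2.48), EBP (-2.16), MVD (-1.96), ACAT2 (-1.93) and FDFT1 (-1.81) had smaller differences, with limma adjusted p between 0.000483 and 0.00961. In each of the 11 lower genes LWDL replicate 2 was the lowest LWDL suckling.

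Expressed as the median of the 12 genes relative to the LWDL mean of each, the LWDL sucklings were at 0.18, -1.77, -0.19, 0.90 and 0.83 and the LWDM sucklings between -2.73 and -2.61. The LWDM livers were alike and the LWDL livers were not. LWDL replicate 2 stood closer to the LWDM sucklings than to LWDL replicates 4 and 5. Without LWDL replicate 2, 11 of the 12 genes were called and the median difference was -3.18. With the slide as a block the median was -1.85 and none of the 12 was called, with limma adjusted p of 0.105 to 0.486 for the 11. The LWDL arrays on the shared slide include replicate 2. On that slide both LWDM arrays were below both LWDL arrays for all 11 genes. Between slides, the LWDM mean of IDI1 was -6.14 on the slide of LWDM alone and -6.22 on the shared slide, and that of HMGCS1 was -4.00 and -3.86. The LWDL mean of IDI1 was -1.58 on the slide of LWDL alone and -3.04 on the shared slide.

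**Figure D2:**
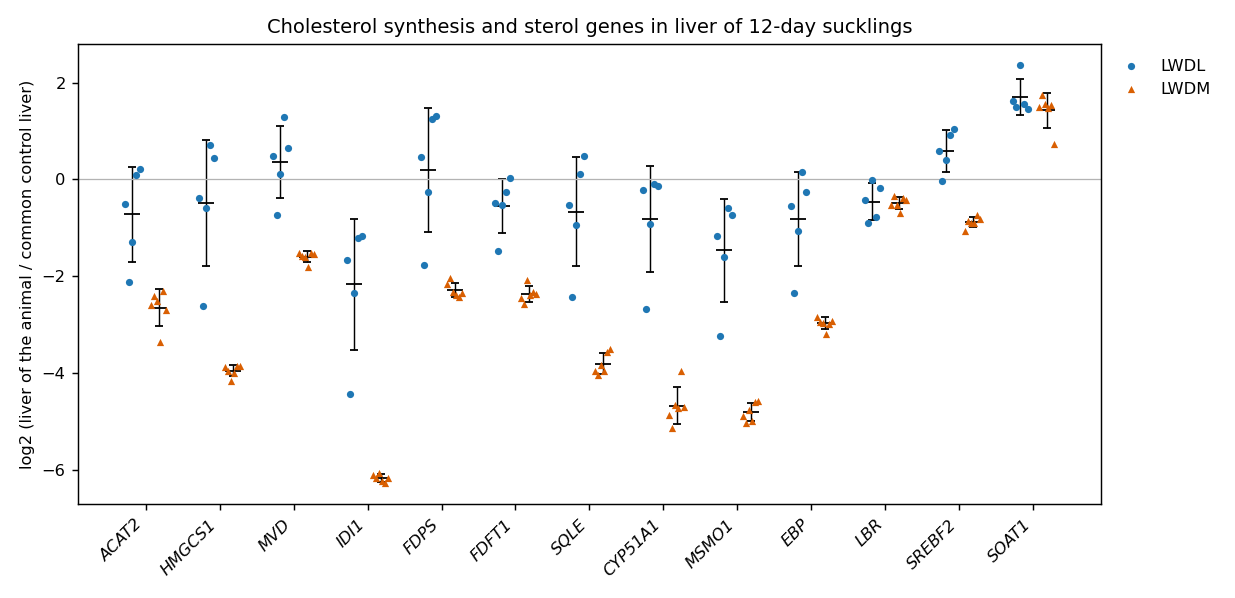
Log2 ratio to the control liver (y axis) of 11 genes of cholesterol synthesis (ACAT2 to LBR) and of SREBF2 and SOAT1 in each suckling. Points are animals, circles 5 LWDL and triangles 6 LWDM, and bars are mean and SD. For IDI1 the LWDM sucklings sit between -6.28 and -6.06 and the LWDL sucklings between -4.43 and -1.17.

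Genes of sterol sensing and uptake went the same way. Only 4 of 24 such genes could be tested, and 3 were called lower in LWDM. SREBF2, which drives the pathway above, was at 0.59, -0.04, 0.40, 0.92 and 1.04 in LWDL and at -1.07, -0.87, -0.90, -0.90, -0.74 and -0.81 in LWDM. The types did not overlap, and the difference was -1.46 (standard error 0.17, limma adjusted p = 0.000362). INSIG1, which holds the SREBF proteins in the endoplasmic reticulum and is itself one of their targets, differed by -1.04. SOAT1, which esterifies cholesterol for storage, had a difference of -0.28 (standard error 0.20, limma adjusted p = 0.437). None of the 4 was called with the slide as a block, where the SREBF2 difference was -1.06 (limma adjusted p = 0.111).

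For the synthesis of fatty acids and triglycerides, 13 tested genes had a median difference of -0.10 (0.027 over all their 20 tested probes), with 1 called higher and 1 called lower. Neither share was above that of all named genes (114 higher and 136 lower of 1037). ELOVL6, which lengthens saturated fatty acids, ranged from -1.13 to 0.13 in LWDL and from -2.52 to -1.30 in LWDM, a difference of -1.69 (limma adjusted p = 0.00319). FADS2, the first desaturase of polyunsaturated fatty acids, ranged from -1.26 to 0.24 in LWDL and from 0.28 to 0.89 in LWDM, a difference of 1.09 (limma adjusted p = 0.0188), which fell to 0.99 without LWDL replicate 1 and to 0.89 without LWDL replicate 4 and was then not called. G0S2, an inhibitor of fat breakdown, had a difference of -0.04 (standard error 0.18).

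In fatty acid uptake and oxidation, 3 of 14 tested genes were higher in LWDM and none was lower, and the median difference was 0.52. CD36, a fatty acid transporter, was at 0.36, 0.35, 0.16, -0.56 and -0.03 in LWDL and at 1.27, 1.43, 1.88, 2.08, 1.94 and 1.15 in LWDM. All LWDM sucklings were above all LWDL sucklings, with a difference of 1.57 (standard error 0.21, limma adjusted p = 0.00114). CPT2, which hands fatty acids to mitochondrial oxidation, ranged from -1.58 to -0.41 in LWDL and from -0.09 to 0.24 in LWDM, a difference of 1.07 (limma adjusted p = 0.00355) that was 0.91, under 2-fold, without LWDL replicate 4. SLC27A2 (0.91), ECI2 (0.77) and ACADSB (0.78) had adjusted p under 0.05 in limma without reaching 2-fold. PHYH, which prepares branched fatty acids for breakdown, had a difference of 0.29 (limma adjusted p = 0.282).

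Of 5 tested genes of ketone body metabolism, 2 were higher in LWDM and 1 was lower. SLC16A6, a transporter known to release ketone bodies from the liver, differed by 1.54 (limma adjusted p = 0.000137). AACS, which uses acetoacetate for lipid synthesis in the cytosol, ranged from -1.07 to 0.31 in LWDL and from -2.35 to -1.76 in LWDM, a difference of -1.73 (limma adjusted p = 0.00119). BDH2, a short-chain dehydrogenase, differed by -0.59 (limma adjusted p = 0.0643).

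In gluconeogenesis and glycogen, 4 of 15 tested genes were higher and 2 were lower in LWDM, with a median of 0.51. PCK1, the entry enzyme of gluconeogenesis, was at -0.35, 0.14, 0.19, -1.30 and -0.01 in LWDL and at 1.09, 1.13, 0.89, 1.03, 1.34 and 1.48 in LWDM. The types did not overlap, with a difference of 1.42 (standard error 0.24, limma adjusted p = 0.00414), and its 3 other probes were also called higher. G6PC, which releases glucose from glucose 6-phosphate, ranged from 0.18 to 1.44 in LWDL and from 1.71 to 2.45 in LWDM, a difference of 1.25 (limma adjusted p = 0.00818), and its 5 other probes were also called higher. The lower genes were PPP1R3C (-1.42, limma adjusted p = 0.00784) and PPP1R3B (-1.20), which both bring protein phosphatase to glycogen, while another such subunit, PPP1R3G, was higher (1.25). SLC37A4, which carries glucose 6-phosphate to G6PC, had a difference of 0.58 (limma adjusted p = 0.0592). With normexp background correction and loess, 2 genes were called higher. With the slide as a block no gene of fatty acid, ketone or glucose metabolism was called, with medians of 0.49 for fatty acid oxidation and 0.33 for gluconeogenesis and glycogen.

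**Figure D3:**
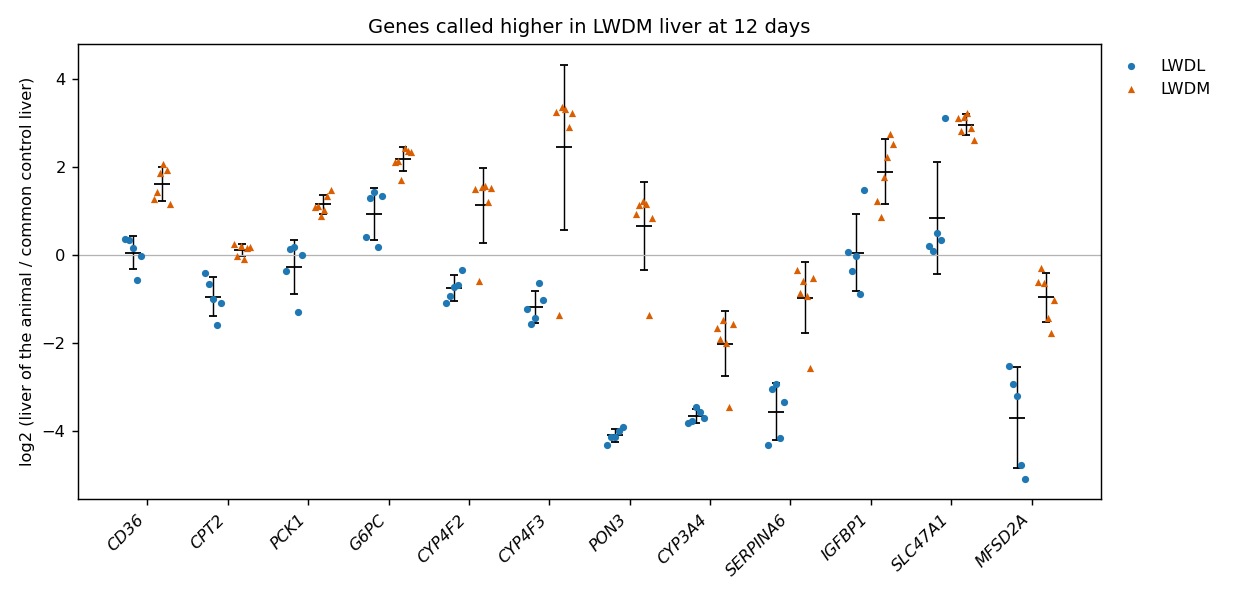
Log2 ratio to the control liver (y axis) of 12 genes that were called higher in LWDM, in each suckling. Points are animals, circles 5 LWDL and triangles 6 LWDM, and bars are mean and SD. LWDM replicate 2 is the single low triangle of CYP4F3 (-1.36) and LWDM replicate 5 that of PON3 (-1.37).

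Among 8 tested enzymes and receptors of icosanoids, 2 were higher and 1 was lower in LWDM. CYP4F3, which inactivates leukotriene B4, was at -1.24, -1.57, -1.43, -0.64 and -1.03 in LWDL and at 3.26, -1.36, 3.36, 3.34, 2.92 and 3.24 in LWDM. Thus 5 LWDM sucklings were alike and replicate 2 lay among the LWDL sucklings. The difference was 3.64 (standard error 0.75, limma adjusted p = 0.0114). CYP4F2, its neighbour in function, showed the same split, with LWDM replicate 2 at -0.58, the other LWDM sucklings between 1.21 and 1.57 and LWDL between -1.09 and -0.34. CYP4F2 and CYP4F3 are close paralogs, and cross-hybridization between their probes was not tested. CYP2J2, an epoxygenase of arachidonic acid, ranged from -2.14 to -0.68 in LWDL and from -3.12 to -1.12 in LWDM (difference -1.07, limma adjusted p = 0.109), while 1 of its 3 other probes was called higher. PLA2G2D, a secreted phospholipase of lymphoid tissue, ranged from 1.502 to 3.42 in LWDL and from -3.78 to -0.04 in LWDM, where 2 of 6 arrays were well above background. Its difference was -4.21 (standard error 0.63, limma adjusted p = 0.0022).

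Of 25 tested genes of drug and retinol metabolism, 4 were higher and 3 were lower in LWDM, with a median of -0.18. Both shares were near those of all named genes (114 higher and 136 lower of 1037). Over all 52 tested probes of the list the median was 0.24, with 9 called higher and 5 lower. PON3, a lactonase of the liver and of high-density lipoprotein, was at -4.33, -4.14, -4.14, -4.02 and -3.92 in LWDL and at 0.93, 1.15, 1.24, 1.16, -1.37 and 0.84 in LWDM. The LWDL sucklings were uniform and low, and LWDM replicate 5 lay between them and the other LWDM sucklings. The difference was 4.77 (standard error 0.40, limma adjusted p = 4.94e-05), and 3.97 with the slide as a block (limma adjusted p = 0.0137). CYP3A4, the main drug oxidase of the liver, lay between -3.83 and -3.46 in LWDL and between -1.997 and -1.49 in LWDM except for replicate 5 at -3.46, with a difference of 1.65 (limma adjusted p = 0.00611). RDH16, a retinol dehydrogenase, had a difference of 0.40 (limma adjusted p = 0.275) on its brightest probe, while 3 of its 6 other probes were called higher. The lower genes were UGT2B17 (-1.13), SULT1C3 (-1.07) and TPMT (-1.05), which conjugate steroids and drugs. Without LWDL replicate 5, 1 gene of the list was called lower. PON3 was the single gene of the list that was called with the slide as a block.

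In amino acid catabolism 3 of 14 tested genes were higher in LWDM and none was lower, with a median of 0.37. AADAT, an aminotransferase of the kynurenine and lysine pathways, was well above background in none of the 5 LWDL livers, 4 of which were listed at a ratio of exactly 0 (LWDL replicate 5 was at 1.01). The 6 LWDM sucklings were between 2.87 and 3.93. AADAT was at least 1.53-fold higher in LWDM (limma adjusted p = 6.93e-06), a bound that sets the LWDM Cy3 signal against the lowest signal well above background on each LWDL array. The adjusted p of genes given by such a bound rests on ratios that were not well above background in one type and is no measure of the size, here and below. OAT, which degrades ornithine, ranged from -2.61 to -1.38 in LWDL and from -1.12 to 0.28 in LWDM, a difference of 1.30 (limma adjusted p = 0.0123). MCCC2, a subunit of the leucine pathway, differed by 1.18, and PHGDH, which starts serine synthesis, by 0.19 (limma adjusted p = 0.589). With normexp correction the AADAT difference was 0.65, under 2-fold. With the slide as a block AADAT alone of this list was called, but both LWDL arrays of the shared slide were listed at exactly 0, so that this call is no check of the difference.

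Of 8 tested genes of the growth hormone and IGF axis, 2 were higher and 2 lower. IGFBP1, which binds IGF and is known to rise on fasting, was at 0.07, -0.36, -0.02, -0.88 and 1.47 in LWDL and at 1.23, 0.87, 1.78, 2.25, 2.75 and 2.52 in LWDM. LWDL replicate 5 overlapped with the LWDM sucklings, and the difference was 1.84 (standard error 0.43, limma adjusted p = 0.0202). IGF1 itself, the growth factor that the liver secretes, was lower in LWDM (-1.36), as was IGFBP4 (-1.13). SERPINA6, the corticosteroid carrier of plasma, ranged from -4.32 to -2.93 in LWDL and from -2.56 to -0.35 in LWDM, a difference of 2.59 (limma adjusted p = 0.00238), with LWDM replicate 5 the lowest. With normexp correction the 2 higher genes and neither of the lower ones were called. HSD11B1, which activates cortisol in the liver, had a difference of 0.10 (limma adjusted p = 0.6).

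Of 13 tested genes of fetal liver, erythroid cells and cell division, 2 were lower in LWDM and none was higher, a share near that of all named genes (136 lower of 1037). DLK1, a paternally expressed gene of fetal liver, ranged from 2.09 to 3.30 in LWDL and from 1.06 to 2.10 in LWDM, where 4 of 6 arrays were well above background, with a difference of -1.11 (limma adjusted p = 0.0107). Without LWDL replicate 3 it was -0.996 and without LWDM replicate 5 -0.98, both short of 2-fold. HBE1, an embryonic globin, differed by -1.65 (limma adjusted p = 0.0359), a call that was lost without 1 LWDL replicate (1, 2, 3 or 4) or LWDM replicate 2, 4 or 5. AFP, the fetal albumin, was 5.08 to 6.19 in LWDM and 6.26 to 7.09 in LWDL with no overlap, and its difference of -0.98 (limma adjusted p = 0.0102) stopped short of 2-fold. None of the 3 tested clock genes was called, CRY2 among them (-0.19, limma adjusted p = 0.516).

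Of 28 tested membrane transporters 9 were higher in LWDM and 4 were lower, the latter a share near that of all named genes (136 of 1037). MFSD2A, which carries lysophosphatidylcholine with long-chain fatty acids, was at -2.52, -2.94, -3.20, -4.78 and -5.09 in LWDL and at -0.60, -0.30, -0.63, -1.43, -1.78 and -1.03 in LWDM. The difference was 2.74 (standard error 0.46, limma adjusted p = 0.00445), and within each type the values varied by over 1 unit. SLC47A1, an exporter of organic cations, was between 0.09 and 0.50 in LWDL replicates 1 to 4 and at 3.12 in replicate 5, which lay among the LWDM sucklings (2.63 to 3.24). The SLC47A1 difference was 2.12 (standard error 0.46, limma adjusted p = 0.0147). SLC15A2, a peptide carrier, was well above background in no LWDM liver and was at least 1.31-fold lower there (limma adjusted p = 0.00123). With normexp correction 3 transporters were called higher and none lower, and with the slide as a block 1 was called higher.

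Of 12 tested T and NK cell genes 9 were called lower and none higher, all 12 differences were below 0, and the median was -1.13. IL2RB, the receptor subunit through which interleukins 2 and 15 signal, was at 1.20, 0.41, 0.07, 0.94 and 0.76 in LWDL and at -1.76, -2.14, -2.04, -2.06, -1.17 and -1.002 in LWDM. The types were apart by more than 1 unit, with a difference of -2.37 (standard error 0.25, limma adjusted p = 0.000254), and IL2RB was called with the slide as a block (-1.89, limma adjusted p = 0.0364). CD3G, a chain of the T cell receptor complex, ranged from -0.15 to 0.89 in LWDL and from -1.29 to -0.70 in LWDM, a difference of -1.28 (limma adjusted p = 0.00197). CD3D (-1.04), CD2 (-1.02), SH2D1A (-1.14), CD244 (-1.16), GPR171 (-1.18), KLRF1 (-1.21) and EOMES (-1.12) made up the rest of the called genes. LCK, the kinase at the T cell receptor, had a difference of -0.85 (limma adjusted p = 0.0086) and stopped short of 2-fold. In bulk liver, fewer lymphocytes and less RNA of these genes per cell cannot be told apart. With normexp correction 1 of the 12 was called at a median of -0.72, and with the slide as a block 1 at a median of -0.88. Of the 9 called genes 8 lay between -1.28 and -1.02, close to the 2-fold limit.

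Chemokines and their receptors had 5 of 7 tested genes lower and 1 higher. CCL8, which draws monocytes and T cells, was at 2.32, 1.87, 2.72, 1.30 and 1.497 in LWDL and at -1.15, -1.14, -0.44, -1.19, -0.51 and 1.81 in LWDM. LWDM replicate 6 lay among the LWDL sucklings, and the difference was -2.38 (standard error 0.50, limma adjusted p = 0.0124). CCL2 (-1.14), CCL19 (-1.08) and XCR1 (-1.31) were also lower. CCL11, the eosinophil chemokine, was the exception, with LWDM between 1.84 and 2.66 and LWDL between -0.67 and 1.61, where 2 of 5 arrays were well above background. Its difference was 1.64 (limma adjusted p = 0.0094). Without LWDL replicate 3, 3 of the chemokine genes were called lower, with normexp correction 2, and with the slide as a block none.

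Of 17 genes of antigen presentation and the interferon response 6 were called lower, none higher, and the median was -0.66. GBP1, an interferon-induced GTPase, was at 2.35, 2.58, 3.27, 1.78 and 2.36 in LWDL and at 0.02, -0.70, -0.40, -0.23, -0.26 and 2.10 in LWDM. As for CCL8, LWDM replicate 6 was level with LWDL, and the difference was -2.38 (standard error 0.44, limma adjusted p = 0.00726). GBP2 (-1.96), PARP14 (-1.71), UBD (-1.69), TAP1 (-1.603) and PSMB9 (-1.58) completed the called genes. The GBP2 call was lost without LWDM replicate 3 or 4 (limma adjusted p = 0.056 for both). The 11 genes that were not called had differences from -0.98 (DDX60) to 0.84 (IFI6), 3 of them above 0. Per animal, the median of the 17 genes relative to the LWDL mean was highest in LWDL replicate 3 (1.08), and LWDM replicate 6 (-0.13) was above LWDL replicates 4 (-0.19) and 5 (-0.48). Without LWDM replicate 6 the list again had 6 genes called lower, with a median of -0.79, and with the slide as a block it had none.

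Macrophage and myeloid genes were lower for 3 of 15 tested members, against 136 of 1037 named genes, and the median was -0.23. MS4A7, a membrane protein of macrophages, ranged from 1.74 to 2.94 in LWDL and from -0.05 to 1.18 in LWDM, a difference of -1.74 (limma adjusted p = 0.00505). CD180, a Toll-like receptor homologue of B cells and macrophages, was between 0.41 and 0.97 in LWDM apart from replicate 6 at 2.54, and between 1.96 and 3.14 in LWDL, a difference of -1.67 (limma adjusted p = 0.0114). CLEC4G, a lectin of the liver sinusoids, had a difference of -0.09 (standard error 0.16). None of the 15 was called with the slide as a block.

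**Figure D4:**
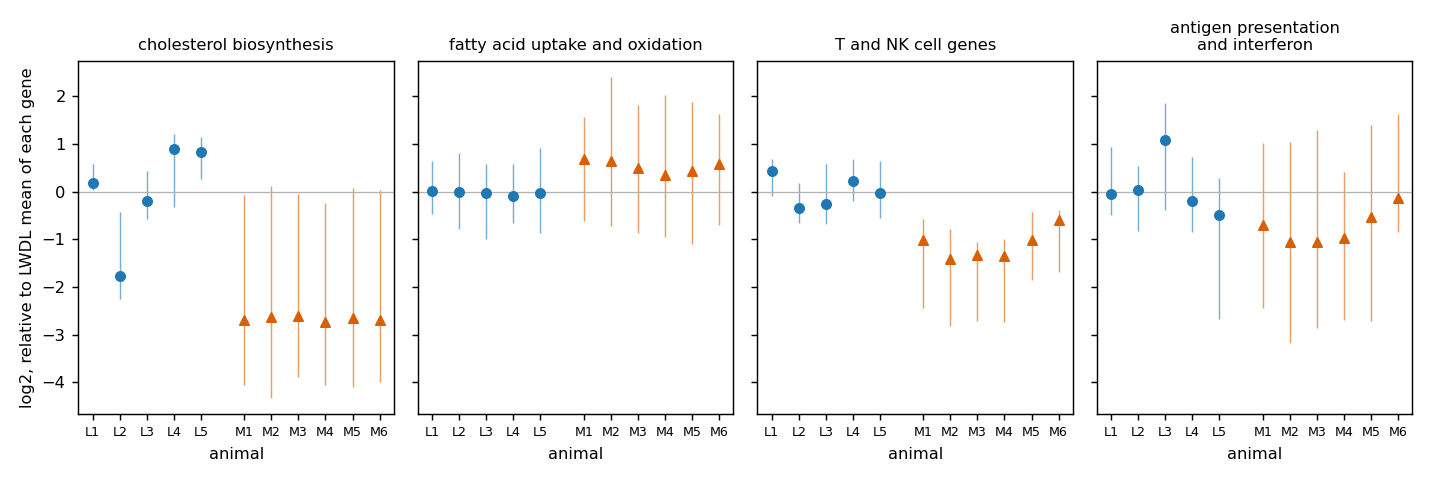
Level of 4 gene lists in each suckling, as log2 relative to the LWDL mean of each gene (y axis). Symbols are the median over the tested genes of a list and lines span its lowest to highest gene, circles for LWDL replicates 1 to 5 (L1 to L5) and triangles for LWDM replicates 1 to 6 (M1 to M6). For cholesterol synthesis the LWDM medians lie between -2.73 and -2.61 and LWDL replicate 2 is at -1.77, and for antigen presentation LWDM replicate 6 is at -0.13.

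Single genes outside these lists were described for the size of their difference and the lack of overlap between the types. For those that were near background in one type the log2 difference is no measured size. LOC285141, an uncharacterized transcript, was not well above background in any LWDL liver and was between 1.67 and 2.51 in LWDM, at least 4.64-fold higher (limma adjusted p = 1.66e-06). SYT1, a vesicle calcium sensor best known from neurons, was listed at exactly 0 in all 5 LWDL livers and was at 3.02, 3.65, 3.00, 3.94, 3.57 and 3.34 in LWDM, at least 1.30-fold higher. The 5 equal LWDL values had no spread of their own, which enters its limma adjusted p of 3.37e-07. SPACA3, a lysozyme-like sperm protein, was at least 1.42-fold higher (limma adjusted p = 0.000267). ABLIM1, an actin-binding protein, was at 2.55 to 3.57 in LWDM and -0.52 to 0.37 in LWDL, where 1 of 5 arrays was well above background and 3 were listed at exactly 0. Its difference of 3.19 (limma adjusted p = 2.13e-06) was 0.39 with normexp correction (limma adjusted p = 0.0563). PRIMA1, the membrane anchor of acetylcholinesterase, differed by 3.10 (limma adjusted p = 0.000221). Of the 229 probes that were higher in LWDM 41 were well above background in no LWDL array.

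Among the genes that were lower in LWDM, LEAP2, a liver peptide that blocks the ghrelin receptor, was at 1.23, 1.33, 1.74, 2.15 and 2.08 in LWDL and at -2.11, -1.13, -1.95, -2.52, -2.94 and -2.39 in LWDM. Both types were well above background on all arrays, and the difference was -3.88 (standard error 0.29, limma adjusted p = 1.63e-05). It was -3.95 with the slide as a block (limma adjusted p = 0.0027). QTRTD1, a subunit of the enzyme that places queuine in transfer RNA, was between 0.65 and 1.49 in LWDL and not well above background in any LWDM liver, at least 1.67-fold lower there (limma adjusted p = 7.6e-06). GPC5, a glypican, ranged from 1.96 to 5.28 in LWDL and from -1.01 to 0.18 in LWDM, where 1 of 6 arrays was well above background. Its difference of -4.05 (limma adjusted p = 0.00037) was -1.49 with normexp correction (limma adjusted p = 0.00344). SNRPA1, a protein of the spliceosome, was between -0.43 and 0.15 in LWDL and fell into separate levels in LWDM, with replicates 3 and 4 at -0.92 and -1.12 and the other 4 between -5.00 and -4.72. The 2 higher LWDM arrays were those well above background, and the SNRPA1 difference was -3.49 (limma adjusted p = 0.0174).

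With the slide as a block, 9 of the 51 called genes chosen for description were still called, namely AADAT, ABLIM1, IL2RB, LEAP2, LOC285141, PON3, PRIMA1, QTRTD1 and SYT1. AADAT, LOC285141, QTRTD1 and SYT1 among them were well above background on no array of one type, and AADAT and SYT1 were at exactly 0 on both LWDL arrays of the shared slide, so that their calls with the block are no check of the difference. ABLIM1 was at exactly 0 on 1 of these LWDL arrays. The other 42 had the same sign and lost the call. With normexp correction and loess, 36 of the 51 were called and all 51 had the same sign. Of the 15 that lost the call, AADAT, ABLIM1, QTRTD1, SPACA3 and SYT1 were among the dim probes described above, with differences of 0.65, 0.39, -0.81, 0.62 and 0.58. All 11 genes of cholesterol synthesis were called with normexp correction.

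Markers of liver cells and of other tissues were read beside these results. Of 6 tested hepatocyte markers, 1 was called higher (SERPINA6) and 1 lower (CP, -1.02), and their median per animal was -0.24 to 0.33 in LWDL and 0.01 to 0.23 in LWDM. Of 4 tested muscle markers, NEB and CA3 were called higher in LWDM (3.43 and 1.95) and TNNI2 (0.40) and TNNT3 (-0.08) were not. The median of the 4 was -0.21 to 0.06 in LWDL and 0.86 to 1.86 in LWDM. NEB was well above background in 1 of 5 LWDL and all 6 LWDM livers, and CA3 in all livers of both types. Over all muscle markers 8 of 10 tested probes were called higher, with a median of 1.70. Of these 8, 7 were probes of CA3, so that the count and the median mostly repeat 1 gene. Another 14 muscle markers were named and not tested, and 8 of these were well above background on no suckling array. TTN was well above background in 4, 4 and 3 of 6 LWDM and 0 of 5 LWDL livers on 3 of its probes and no more often in LWDM than in LWDL on the 3 others. PYGM was so in 3 LWDM and 0 LWDL livers and another NEB probe in 5 LWDM and 1 LWDL livers. ACTA1 was well above background in 1 LWDL and 1 LWDM liver, MYH7 in 4 LWDL and 5 LWDM livers and MYBPC2 in 0 and 1. The 2 probes of MYOZ1 were so in 2 LWDL and 2 LWDM livers and in 1 and 0. MYH1 and CKM had no named probe. Of 2 tested adipocyte markers PCK1 was called higher, which is the gluconeogenesis gene described above and no marker of fat cells within liver. Of 5 tested erythroid markers HBE1 was called lower. None of 6 tested markers of bile duct cells and none of 6 of endothelial and stellate cells was called. The part of muscle RNA or of other cell types in the differences above was not tested.

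The breed difference of sucklings was set against that of the other ages by the interaction in a single fit of all 38 liver arrays. It differed from that of fattening pigs for 647 of 32610 probes (1.98%) and from that of fetuses for 420 of 30821 (1.36%). Without fetal LWDL replicate 2 the latter count was 539 of 30973. In fattening pigs no slide held both types, so that breed type and slide cannot be told apart at that age. With the slide as a random block the count against fattening pigs was 425. Of the 500 probes called in sucklings, 155 differed from fattening pigs, 137 from fetuses and 70 from both (184 and 84 without that fetal array). The interactions share the suckling arrays, so the counts are not independent, and the probes were chosen on one of the arms. Cholesterol synthesis had a median breed difference of -0.03 in fattening pigs and of 0.002 in fetuses (0.031 without fetal LWDL replicate 2), against -2.69 in sucklings. All 11 genes lower in LWDM sucklings differed by the interaction from both other ages, with and without that array.

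For HMGCS1 the mean log2 ratios were 0.73 in LWDL and 0.82 in LWDM fetuses, -0.49 and -3.95 in sucklings, and 1.43 and 1.67 in fattening pigs. The means of both types were thus lowest at 12 days, and that of LWDM was lower still. Differences between ages within a type were not tested, and each age had its own slides. The interaction was -3.71 against fattening pigs (standard error 0.51, limma adjusted p = 2.14e-05) and -3.55 against fetuses (standard error 0.54, limma adjusted p = 0.000111), or -3.56 against fetuses without fetal LWDL replicate 2. IDI1, on its brightest probe, gave -4.40 and -3.82, CYP51A1 -3.76 and -3.59, and SREBF2 -1.41 and -1.53. Without that fetal array the values against fetuses were -4.23, -3.62 and -1.35.

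Breed differences of other genes also depended on age. IGFBP1 was higher in LWDM sucklings (1.84) and lower in LWDM fattening pigs (-1.84), an interaction of 3.69 (limma adjusted p = 0.00684). The suckling call of IGFBP1 was lost in this fit of all liver arrays and with the slide as a block. Its interaction against fetuses was 2.61 (limma adjusted p = 0.0983), and 3.33 without fetal LWDL replicate 2 (limma adjusted p = 0.00489). SLC47A1 was higher in LWDM fetuses (4.28) and sucklings (2.12) and lower in LWDM fattening pigs (-2.46), an interaction of 4.58 against the latter (standard error 0.58, limma adjusted p = 5.33e-06). LEAP2 was lower in LWDM fetuses (-2.75) and sucklings (-3.88) but not in fattening pigs (0.25), with an interaction of -4.13 (standard error 0.36, limma adjusted p = 5.96e-09). PON3 gave 4.77 in sucklings, 1.46 in fattening pigs (limma adjusted p = 0.0874) and -1.05 in fetuses (limma adjusted p = 0.348), with interactions of 3.30 and 5.81. Without fetal LWDL replicate 2 the fetal difference was -0.042 and the interaction 4.81. By contrast CYP4F3 was higher in LWDM at each age (4.28, 3.64 and 3.10), and its interactions of -0.64 and 0.54 had limma adjusted p of 0.824 and 0.837. Without fetal LWDL replicate 2 the fetal differences were 4.48 for SLC47A1, -2.84 for LEAP2 and 5.08 for CYP4F3, and the CYP4F3 interaction was -1.44 (limma adjusted p = 0.517).

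**Figure D5:**
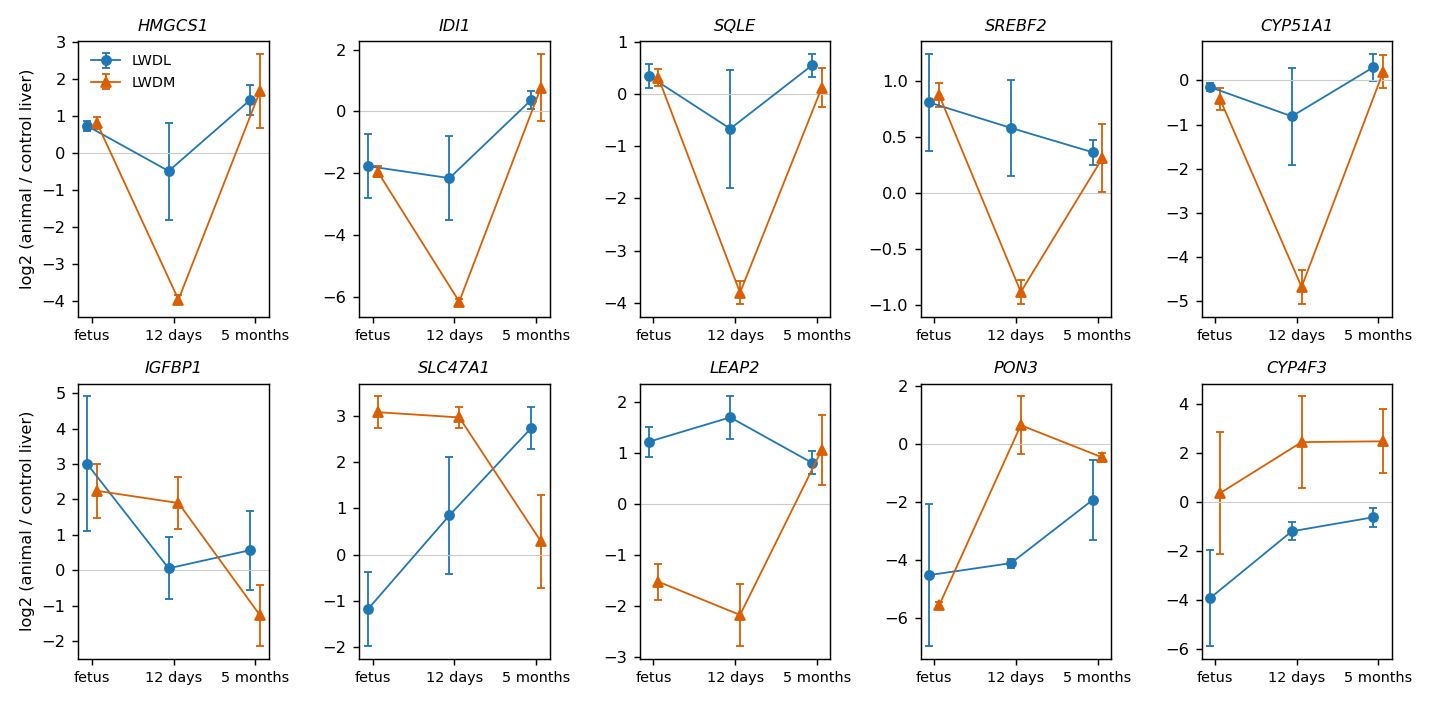
Mean log2 ratio to the control liver (y axis) of 10 genes in liver of fetuses, 12-day-old sucklings and 5-month-old fattening pigs, circles for LWDL (n = 6, 5 and 8) and triangles for LWDM (n = 6, 6 and 7), with SD. Ages are different animals, lines join the means of one type, and fetal LWDL replicate 2 is included. The cholesterol synthesis genes are lowest in LWDM sucklings, with HMGCS1 at -3.95 there and at 0.82 and 1.67 in the other LWDM groups, and SLC47A1 and IGFBP1 change sign between 12 days and 5 months.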

How the data were processed

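The 11 liver arrays of 12-day-old sucklings, and the other 27 liver arrays, were read as deposited. The deposited intensity values are spot signals and background marks of both dyes from Agilent Feature Extraction 9.5. The deposited log10 values are the ratios of Cy5 over Cy3 after the authors' background subtraction and dye normalization, and they were turned to log2 of Cy3 over Cy5. A series table by the authors gives these log10 ratios rounded and with the opposite sign.

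Of 44638 spots, 1417 controls and the 1 to 15 probes per array with an outlier mark were left out. Probes were tested if all arrays of LWDL, of LWDM or of both had a Cy3 signal well above background and each type had at least 3 values. LWDL and LWDM were compared with limma 3.58.1 in R 4.3.3, two-sided, and called where the difference exceeded 2-fold and the adjusted p (Benjamini-Hochberg, over all tested probes) was below 0.05. Differences between ages were interactions in 1 fit of 38 liver arrays. Animals are the replicates, and their number limits the precision. Values listed at exactly 0 made up 0.0127% of those tested. Tested on simulated data with 200 changed probes (1.5 on the log2 scale), limma recovered 194 for the breed contrast among 29342 probes, with 5 false calls, and 171 for the interaction with fattening pigs among 32610, with 4. The simulated noise was independent between probes and arrays, with no effect of slide, litter or sire. These counts therefore do not give the rate of false calls on the real arrays.

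The members of the lists and the lists were chosen with earlier results of these data known. Symbols came from the supplementary tables (2011 probes, 1526 symbols), and a gene is represented by its tested probe with the highest mean Cy3 signal. Genes described are the 8 with the largest difference in each direction among called genes without overlap, all members of cholesterol synthesis, from each other list the 2 largest called and the brightest not called, those the study names for suckling liver, and the 3 largest interactions in each direction. A few genes chosen in this way are not reported here. Further list members and muscle markers are given as values chosen after they were seen. A bound for dim probes used Cy3 after normexp, loess and quantile normalization. Coordinates and probe sequences were not used here. Alternatives were the methods' t-test (Student's test on the same values), normexp with an offset of 50 and loess, median centring, other filters, the slide as a block, the replicate number as a block, all liver arrays in 1 fit, the series table, and leaving out each animal.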

Additional observations from a re-analysis of the deposited data

Results flagged for a closer look

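Single animals stood apart from the rest of their breed type in 17 of 137 groups of values tested for the described genes, where chance gives about 1 in 20. LWDM replicate 6 was high for CCL8 (1.81), CD180 (2.54) and GBP1 (2.10) and low for SOAT1 (0.73). LWDM replicate 5 was low for CYP3A4 (-3.46), PON3 (-1.37) and SERPINA6 (-2.56). LWDM replicate 2 was low for CYP4F2 (-0.58) and CYP4F3 (-1.36). LWDM replicate 4 was low for ACAT2 (-3.37) and MVD (-1.80), LWDM replicate 3 for HBE1 (-2.68, not well above background) and LWDM replicate 1 for SLC15A2 (-4.03), which was well above background in no LWDM liver. LWDL replicate 3 was high for GBP2 (2.78) and SOAT1 (2.37), and LWDL replicate 5 for SLC47A1 (3.12) and AADAT (1.01), the latter against 4 arrays listed at 0. In the genes of cholesterol synthesis LWDL replicate 2 was the lowest of its type, without standing apart by this measure.

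Between 12 days and 5 months the breed difference changed, by the interaction, for 30 of the 69 described genes, against 1.98% of all tested probes. The described genes were chosen in part for the size of this interaction and of the suckling difference, so their count is a description. It was more negative in sucklings for the cholesterol synthesis genes IDI1 (-4.40), CYP51A1 (-3.76), HMGCS1 (-3.71), MSMO1 (-3.23), SQLE (-2.71), FDPS (-2.52), EBP (-2.47), ACAT2 (-2.05), MVD (-2.04) and FDFT1 (-1.43). It was also more negative for the sterol genes SREBF2 (-1.41) and SOAT1 (-1.32) and for AACS (-1.43). The same sign was found for LEAP2 (-4.13), QTRTD1 (-3.86), PLA2G2D (-2.85), CYP2J2 (-2.63), GPC5 (-2.05), IL2RB (-1.90), PPP1R3C (-1.70) and CD180 (-1.41). It was more positive in sucklings for SLC47A1 (4.58), IGFBP1 (3.69), SPACA3 (3.31), SYT1 (3.30), PON3 (3.30), NEB (3.14), PCK1 (2.39), CD36 (1.97) and FADS2 (1.45). CYP2J2 is given by its brightest probe, and another of its probes was called higher in LWDM at both ages (1.5998 and 2.60), with an interaction of -0.997 (limma adjusted p = 0.209). For AADAT, LOC285141, QTRTD1, SPACA3 and SYT1, here and in the comparison with fetuses, no suckling array of one type was well above background, so their interactions are not measured sizes. The same limit holds in part for NEB (1 of 5 LWDL arrays well above background), GPC5 (1 of 6 LWDM arrays) and PLA2G2D (2 of 6 LWDM arrays).

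Between the fetus and 12 days it changed for 27 of the 69 genes, against 1.36% of all tested probes. All 27 were also called without fetal LWDL replicate 2, the array that stood apart, and CYP3A4, GBP1, IGFBP1, IL2RB, PCK1 and PPP1R3C were called in addition. Without that array the interaction was 4.81 for PON3, 2.70 for MFSD2A, -6.82 for QTRTD1 and 5.31 for LOC285141, and the other 23 moved by 0.46 or less. The cholesterol synthesis genes were again more negative in sucklings, with IDI1 at -3.82, CYP51A1 at -3.59, HMGCS1 at -3.55, SQLE at -3.10, MSMO1 at -2.65, FDPS at -2.52, MVD at -2.40, ACAT2 at -2.10, EBP at -2.09 and FDFT1 at -1.61. SREBF2 (-1.53) and AACS (-1.10) had the same sign. LBR had -2.32, from breed differences of -0.02 in sucklings and 2.30 in fetuses. More negative values were also found for QTRTD1 (-6.11), GPC5 (-3.53), PLA2G2D (-3.29), SLC47A1 (-2.15), GBP2 (-1.83) and CD180 (-1.81). More positive values were found for PON3 (5.81), LOC285141 (4.59), SYT1 (4.09), MFSD2A (3.69), AADAT (2.87), SERPINA6 (2.68), FADS2 (1.37) and CLEC4G (1.16).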

How the results depend on the processing

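Against 500 probes called in suckling liver, normexp correction and loess called 214 (97 higher, 117 lower), the slide as a block 92 and a fit within the shared slide, with 2 arrays of each type, 22, and these included 203, 68 and 17 of the 500. Without each animal in turn the count was 408 to 550. The methods' t-test called 362 and the other alternatives between 345 (134 higher, 211 lower, probes well above background on all arrays) and 497. For the interaction with fattening pigs (647 probes), normexp called 264 and the slide as a random block 425, and leaving out a suckling gave 531 to 787. For that with fetuses (420 probes), normexp called 249 and the fit of the 4 groups alone 279, and leaving out a suckling gave 337 to 439. Replicate numbers of LWDL and LWDM did not pair the animals (correlations of -0.164 to -0.017), and with the replicate block 453 probes were called in sucklings. Of the 51 called genes described, 45 kept the call with this block, 46 with the methods' t-test, 36 with normexp, 9 with the slide as a block and 43 in the fit of all liver arrays, and none changed sign. In that last fit CCL11, CPT2, CYP3A4, DLK1, HBE1, IGFBP1, MS4A7 and PCK1 lost the call. Sign changes were limited to genes that were not called. These were G0S2 with normexp (0.000279) and the replicate block (0.057), LBR with normexp (0.048) and the slide as a block (0.25), and CLEC4G (0.055), CCL23 (-0.22, from 0.43) and CYP2C18 (-0.57, from 0.76) with the slide as a block. Without each animal in turn G0S2 was -0.13 to 0.057, LBR -0.13 to 0.086 and CLEC4G -0.20 to 0.0024. Signal near background limits the 41 probes that no LWDL array measured well, and the layout of the sucklings on 3 slides limits their breed contrast. Comparisons across ages are limited by slides that differ between ages and, in fattening pigs, between the types. The shared control, 1 dye orientation and 1 boar of each breed limit all comparisons.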

Other observations

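Outside the genes with symbols, 153 called probes had no name here. AGPOA3-29016 and AGPOA3-12345 were well above background in no LWDL and all 6 LWDM livers, and were at least 2.25-fold and 2.33-fold higher in LWDM. AGPOA3-17858 (-3.20) and AGPOA3-14820 (-3.13) were well above background in all LWDL livers but in 1 and 3 of the 6 LWDM livers.

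Some genes that were not called in sucklings differed by breed at another age. LBR had a difference of 2.30 in fetuses (limma adjusted p = 8.97e-07, 2.45 without fetal LWDL replicate 2), against -0.02 in sucklings and -0.32 in fattening pigs. BDH2 had -1.34 in fetuses (limma adjusted p = 2.08e-06, -1.33 without that array), -0.59 in sucklings and -0.87 in fattening pigs. SOAT1 had 1.04 in fattening pigs (limma adjusted p = 0.000539) and -0.28 in sucklings. CYP2J2 had 1.56 in fattening pigs (limma adjusted p = 0.00296) and -1.07 in sucklings on its brightest probe, while another probe was higher in LWDM at both ages (2.60 and 1.5998). CLEC4G, the sinusoidal lectin, had -1.25 in fetuses (limma adjusted p = 2.91e-05, -1.12 without that array) and -0.09 in sucklings.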
